A study of Rattus norvegicus with 6 samples.

Results

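Fragments of nuclear leucine tRNAs were followed in the hippocampus of nicotine-treated and saline-treated rats. They were all fragments named for a leucine tRNA that did not carry the mitochondrial prefix, and they numbered 41 of the 615 fragments listed in the deposited tables. The animals were Sprague-Dawley rats aged 6 to 8 weeks, with 3 nicotine-treated and 3 saline-treated rats and 1 library of small RNA from the hippocampus of each. Neither the dose nor the duration of nicotine is given in the sources used here, and no other treatment or genetic change is named for either group. The labels give each rat its own number but do not say how the rats were housed or handled in batches. The tables list tRNA fragments alone, so the tissue could not be checked against marker genes.

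Leucine is carried by 5 nuclear tRNAs here, named by anticodon as Leu-AAG, Leu-CAA, Leu-CAG, Leu-TAA and Leu-TAG. Leucine and serine tRNAs have a long variable arm between the anticodon arm and the T arm, which most other nuclear tRNAs lack, and in mammals the precursor of tRNA Leu-CAA also holds an intron. Fragments arise when nucleases cut the D loop, the anticodon loop or the T loop of a mature tRNA. Pieces from the 5' end are called tRF-5, or tiRNA-5 when the cut is in the anticodon loop, and pieces that keep the CCA tail are called tRF-3. Short 3' fragments are loaded on Argonaute proteins in mammalian cells, and a 22 nt 3' fragment of tRNA Leu-CAG is known from human cells to help the translation of a ribosomal protein mRNA.

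The leucine fragments held 4752 reads over the 6 libraries. The numbers were 632, 629 and 603 reads in the nicotine libraries, out of library totals of 90828, 122282 and 128694. They were 1330, 666 and 892 reads in the saline libraries, out of totals of 374763, 154414 and 206221. Every saline library was deeper than every nicotine library, so depth and treatment cannot be told apart. CPM (reads scaled to the authors' library total) was the deposited unit, and 1 read was worth 7.77 to 11.0 CPM in nicotine and 2.67 to 6.48 CPM in saline libraries. Each of the 41 members reached at least 20 CPM in some library, and 10 did so in 1 library alone, 8 of them in a nicotine library (4, 3 and 1 in nicotine 1, 2 and 3) and 2 in a saline library (0, 1 and 1 in saline 1, 2 and 3). To reach 20 CPM took 2 or 3 reads in a nicotine library and 4 to 8 in a saline library. By group, 12 members reached it in nicotine alone, 2 in saline alone and 27 in both, against 165, 23 and 427 of all 615 fragments. The list is thus tilted toward nicotine, which bears on each later count of higher and of non-overlapping fragments. Reads of 24 members were present in all 6 libraries, and 3 members had reads in 1 library alone. The intervals given with shares reflect counting error and nothing else.

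The listed leucine fragments came from the ends of the tRNA. Of the 41, 21 began at the first base, 17 ended at the CCA tail, 2 were internal and 1 was a trailer (tRF-1), which is trimmed off a precursor tRNA past its mature end. The 3' fragments ended at position 85 for Leu-AAG and Leu-TAG, at 86 for Leu-CAG and Leu-TAA and at 87 for Leu-CAA. They were 17, 18, 19, 21 or 22 nt long. The 5' fragments were 14 to 16 nt (tRF-5a), 22 to 24 nt (tRF-5b) or 35 nt (tiRNA-5) long, and no leucine fragment of 28 to 32 nt (tRF-5c) was listed. As the list holds only fragments that reached about 20 CPM, rarer ones were not seen. Both internal fragments spanned positions 29 to 42, across the anticodon, and came from Leu-AAG and Leu-TAG.

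**Figure D1:**
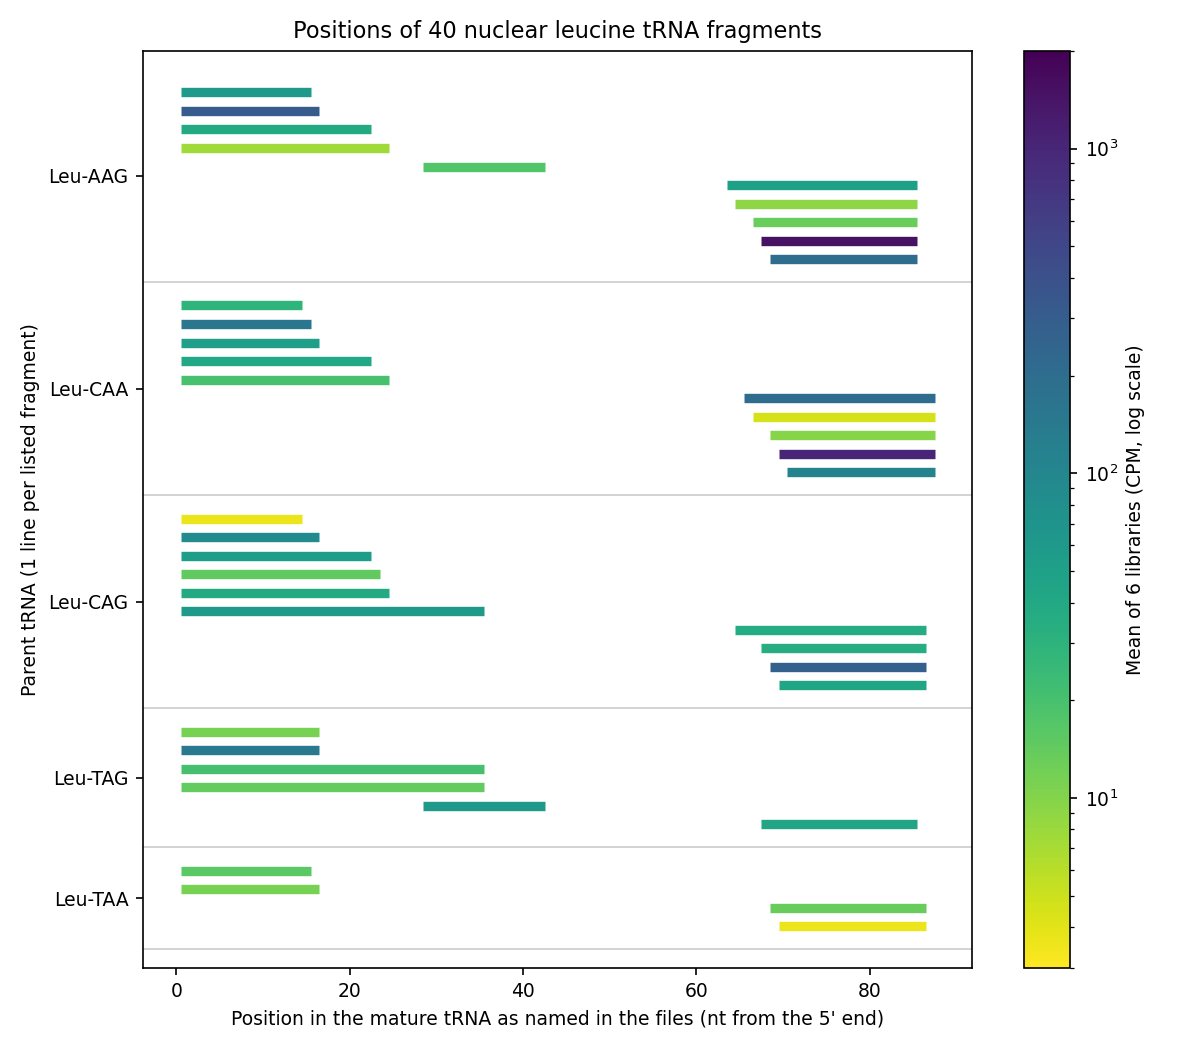
Positions of the 40 leucine fragments that lie in the mature tRNA (the trailer is left out), 1 line per fragment, along the tRNA in nt from the 5' end and grouped by parent tRNA. Colour gives the mean CPM over 6 libraries on a log scale; the darkest lines are the 18 nt 3' fragments of Leu-AAG and Leu-CAA.

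Most leucine reads were short 3' fragments. Fragments of 17 to 18 nt that end in the CCA tail (tRF-3a) made up 65.9% ± 3.62 of the leucine reads (SD over 6 libraries), against 2.89% ± 1.21 of the reads of the other nuclear tRNAs. The other nuclear reads were mostly tRF-5c, at 82.8% ± 3.97, which came largely from glycine tRNAs: without these it was 28.6% ± 7.90, and no class held a majority. Leucine reads also had larger shares of tRF-3b (19 to 22 nt), at 7.63% ± 1.44 against 0.658% ± 0.1996, and of tRF-5a, at 18.1% ± 3.14 against 0.929% ± 0.243. The shares of tiRNA-5 were smaller, at 2.13% ± 0.928 against 6.29% ± 1.41 (21.99% ± 6.31 without glycine). Trailers took 0.0527% ± 0.129 of the leucine reads, against 5.37% ± 1.92 of the others (24.5% ± 4.18 without glycine).

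Apart from tRF-5c, each of these differences had the same sign in 6 of 6 libraries, as had those of tRF-2 (internal, 1.60% ± 0.278 against 0.080% ± 0.032) and tRF-5b (4.60% ± 1.10 against 0.979% ± 0.337). The exact two-sided sign-flip permutation p was 0.0312 for each of the 7 classes with a listed leucine fragment, the smallest that 6 libraries allow, and 0.0312 after Benjamini-Hochberg adjustment. For tRF-5c, with no listed leucine fragment, the sign was fixed and the values are a description. For tRF-1, leucine had 2 reads in nicotine 1 and 0 in the other libraries. In those libraries the sign was fixed as well, so the tRF-1 values are also a description. As a larger share of one class leaves less for the others, these tests are not independent. With glycine left out, tRF-3a still differed, at 65.9% against 13.2% ± 4.16, while the shares of tRF-5b were 4.60% against 4.53% ± 1.13, with 3 of 6 libraries higher (exact permutation p = 0.969).

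A large tRF-3a share was not particular to leucine. Among 21 nuclear parents, with the initiator methionine tRNA counted apart, leucine ranked 7th in the mean share of tRF-3a, below for example alanine at 70.7% and cysteine at 82.3%. In CPM its tRF-3a ranked 2nd, with a mean of 3197 CPM, below alanine at 5420.3 CPM. Serine tRNAs, the other family with a long variable arm, had a tRF-3a share of 31.0% ± 7.88 and a tRF-5a share of 33.3% ± 9.36. Neither serine nor leucine had a listed tRF-5c, and serine had no listed tiRNA-5. Leucine exceeded serine in tRF-3a by 34.9 percentage points and lay below it in tRF-5a by 15.2 in 6 of 6 libraries each (exact permutation adjusted p = 0.05 over 8 classes, at the threshold and not under it). This adjusted p depends on counting classes whose sign the list fixed. They are tRF-2 and tiRNA-5, unlisted in serine, and tRF-1, with leucine reads in nicotine 1 alone. The 6 listed mitochondrial leucine fragments, at 29.1 to 123 CPM per library in sum, held 0 from the 3' end.

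**Figure D2:**
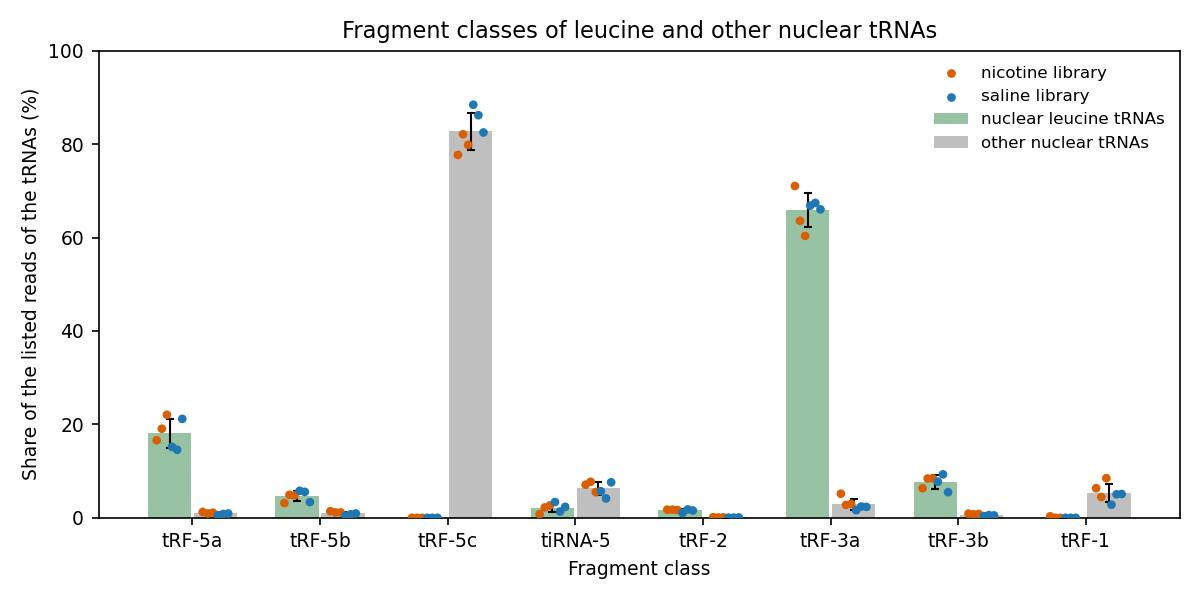
Share of each fragment class (%) in the listed reads of nuclear leucine tRNAs and of the other nuclear tRNAs; bars are means and error bars SD over 6 libraries, and points are single libraries. Leucine reads were mostly tRF-3a (65.9%) and the other reads mostly tRF-5c (82.8%, or 28.6% without glycine).

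The parent tRNAs kept one order in all 6 libraries, namely Leu-AAG, Leu-CAA, Leu-CAG, Leu-TAG and Leu-TAA. Fragments of Leu-AAG took 45.5% of the leucine reads on average, those of Leu-CAA 33.8%, of Leu-CAG 13.8%, of Leu-TAG 6.03% and of Leu-TAA 0.904%. The first pair lay close in saline 1, at 539 reads for Leu-AAG and 505 for Leu-CAA, where the 95% Wilson intervals of their shares overlapped (37.9% to 43.2% and 35.4% to 40.6%). Levels of different fragments also carry differences in adapter ligation and reverse transcription, whose part was not tested. Leucine tRNA genes are close copies of each other, and 26 of the 41 names carry an M suffix whose meaning is not given in the sources used here. How reads were divided between Leu-AAG and Leu-TAG in particular is uncertain.

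By fragment name, the parents differed in which end was read. As the division of reads between close copies is uncertain, these shares hold for the names and may not hold for the tRNAs. For Leu-AAG and Leu-CAA 75.0% to 85.2% and 75.6% to 85.8% of the reads were 3' fragments over the 6 libraries, and for Leu-CAG 50.7% to 67.1%. Leu-TAG had only 7.41% to 21.7%, and 53.6% to 74.1% of its reads were 5' fragments. Leu-TAA was too rare to place, with 5 to 10 reads per library. The names of Leu-AAG and Leu-CAA also differed in the length of the short 5' fragment. Within each parent the 15 and 16 nt names carry different M suffixes, so they may not stand for the same set of genes. For Leu-CAA the 15 nt form had more reads than the 16 nt form in 6 of 6 libraries, and for Leu-AAG the 16 nt form had more than the 15 nt form in 6 of 6. On the 3' side the 18 nt form had more reads than the 17 nt form in 6 of 6 libraries for Leu-AAG, Leu-CAA and Leu-CAG. The 22 nt form took 16.1% ± 5.52 of the 3' reads of Leu-CAA, 9.18% ± 5.51 of those of Leu-CAG and 2.75% ± 0.559 of those of Leu-AAG (SD over 6 libraries).

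The comparison of nicotine with saline asked whether leucine fragments differed after the drug. In sum they had 6958, 5144 and 4686 CPM in the nicotine libraries, against 3549, 4313 and 4325 CPM in the saline libraries. All 3 nicotine sums lay above all 3 saline sums, with nicotine 1 highest and saline 1 lowest. The means were 5596 CPM ± 1202 in nicotine and 4062 CPM ± 445 in saline (SD, n = 3 each), a log2 ratio of 0.45. In bulk tissue, fewer cells of a type and less RNA per cell cannot be told apart.

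The size of this difference, and whether the groups overlapped, moved with the scaling. All tested fragments had a median log2 fold change of 0.28 in CPM as deposited, and of -0.02 once TMM, a scaling that centres most fragments, was applied. After TMM the log2 ratio of the leucine sum was 0.12 and the groups overlapped. As a share of all listed reads, leucine took 1.10% ± 0.277 in nicotine and 0.682% ± 0.154 in saline (SD, n = 3 each), without overlap. As a share of listed reads without glycine, leucine took 5.11%, 4.08% and 3.37% in nicotine, against 3.26%, 3.29% and 3.34% in saline, also without overlap. The lowest nicotine share, that of nicotine 3 (95% Wilson interval 3.12% to 3.65%), could not be separated from the saline shares by counting error. Without nicotine 1 the log2 ratio of the sum went to 0.28.

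The shares of the leucine classes and parents overlapped between the groups. The tRF-3a share was 65.00% ± 5.48 in nicotine and 66.8% ± 0.696 in saline libraries, and that of tRF-5a was 19.2% ± 2.73 in nicotine and 16.98% ± 3.66 in saline (SD, n = 3 each). Leu-AAG held 45.2% ± 2.71 of the leucine reads in nicotine and 45.8% ± 5.93 in saline, and Leu-CAA held 34.4% ± 3.92 in nicotine and 33.2% ± 4.86 in saline (SD, n = 3 each). In CPM, tRF-5a summed to 1156, 981 and 1033 CPM in nicotine libraries, against 539, 628 and 916 CPM in saline libraries, without overlap. After TMM the tRF-5a sums overlapped, as saline 3 lay above nicotine 1. In CPM as deposited, tRF-3a summed to 4943, 3271 and 2828 CPM in nicotine, against 2372, 2908 and 2856 CPM in saline. Nicotine 3 lay inside the saline range. For tRF-3a the log2 ratio was 0.41, and 0.17 without nicotine 1. tRF-3b summed to 440.4, 433 and 396 CPM in nicotine, against 275, 402 and 238 CPM in saline. tRF-5b summed to 220.2, 254 and 225 CPM in nicotine, against 205, 239.6 and 145 CPM in saline. tiRNA-5 averaged 98.0 CPM ± 37.5 in nicotine and 93.4 CPM ± 31.7 in saline, and tRF-2 averaged 96.3 CPM ± 22.4 in nicotine and 61.0 CPM ± 21.04 in saline (SD, n = 3 each). In each of these 4 classes the groups overlapped.

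Summed by length, the 14 and 15 nt 5' fragments were higher in nicotine without overlap in CPM as deposited. After TMM the closest 15 nt sums were 234 CPM in nicotine 3 and 228 CPM in saline 1. The closest 14 nt sums were then 35.5 CPM in nicotine 3 and 29.7 CPM in saline 3. In both, less than 1 nicotine 3 read kept the groups from overlapping after TMM. The sums that follow are in CPM as deposited. Fragments of 15 nt summed to 363, 286 and 256 CPM in nicotine, against 168, 117 and 179 CPM in saline, and took 5.22% to 5.56% of the leucine reads in nicotine and 2.70% to 4.74% in saline. Those of 14 nt, with 38.9 to 66.1 CPM in nicotine and 6.48 to 29.1 CPM in saline, also did not overlap, on 5 or 6 reads in nicotine and 1 to 6 in saline libraries. Each sum holds a fragment that reached 20 CPM in nicotine alone, tRF-1:15-Leu-TAA-1 for 15 nt and tRF-1:14-Leu-CAG-4 for 14 nt. The other 14 nt fragment, tRF-1:14-Leu-CAA-1-M5, did not overlap by itself. The 15 nt sum without tRF-1:15-Leu-TAA-1 was not compared. The 22 nt 5' fragments had 139 to 165 CPM in nicotine and 107 to 136 CPM in saline, and the 17 nt 3' fragments 311 to 738 CPM in nicotine and 211 to 304 CPM in saline. In both, the closest libraries lay less than the 7.77 CPM of 1 nicotine 3 read apart, and the groups overlapped after TMM. The 21 nt 3' fragments had 2, 3 and 3 reads in nicotine, against 2, 1 and 0 in saline, and entered the list through nicotine libraries alone, so that their CPM is not compared. No share over all fragments stands beside these length sums, which are a description. For the 16 nt 5' forms the groups overlapped, with 654 to 738 CPM in nicotine and 358 to 708 CPM in saline. The part that 14 and 15 nt forms took of all tRF-5a reads was 37.1%, 33.3% and 28.6% in nicotine, against 33.7%, 19.6% and 22.8% in saline. The 95% Wilson interval ran from 28.5% to 46.7% for nicotine 1 and from 12.9% to 28.6% for saline 2, and saline 1 lay inside the nicotine range.

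The fragments of each parent were tested as a sum with limma, fitted on log2(CPM + 1) over all anticodons. Leu-AAG had 3061, 2224 and 2261 CPM in nicotine, against 1438, 1930 and 2259.7 CPM in saline, a log2 fold change of 0.43 (SE 0.31). Leu-CAA had 2554, 1881 and 1399 CPM in nicotine, against 1348, 1438 and 1222 CPM in saline, a log2 fold change of 0.50 (SE 0.31). For both, 1 pair of libraries set the overlap. Nicotine 2 lay below saline 3 for Leu-AAG, and nicotine 3 lay below saline 2 for Leu-CAA. Leu-CAG had 870, 769 and 567 CPM in nicotine, against 574, 661 and 504 CPM in saline (log2 fold change 0.33, SE 0.34). Leu-TAG had 407, 229 and 419.6 CPM in nicotine, against 171, 233 and 291 CPM in saline (log2 fold change 0.58, SE 0.44). Leu-TAA had 66.1, 40.9 and 38.9 CPM in nicotine, against 18.7, 51.8 and 48.5 CPM in saline (log2 fold change 0.37, SE 0.74). The groups overlapped for each parent. Of the 66 anticodons tested 0.0% passed an adjusted p of 0.05 in limma, and 7.58% had an unadjusted p under 0.05 (6.06% higher and 1.52% lower in nicotine), among them 0 of the 5 leucine parents. The smallest limma adjusted p of a leucine parent was 0.39. Groups without overlap and higher in nicotine made up 9.09% of all anticodons and 0 of the 5. All 5 had a positive log2 fold change, as had 83.3% of all anticodons, and 68.2% of all had one after TMM, where the leucine values ran from 0.0046 to 0.26. Their median log2 fold change of 0.43 lay beside 0.45 for all anticodons.

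**Figure D3:**
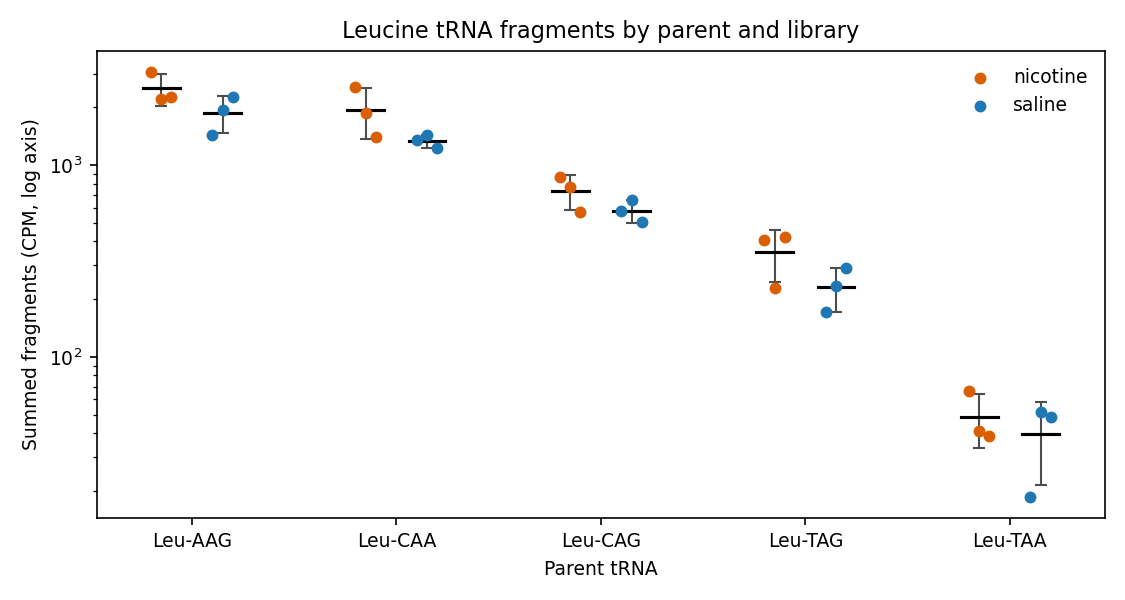
Summed CPM (log axis) of the fragments of each leucine tRNA in 3 nicotine and 3 saline libraries; points are libraries, lines are means and error bars SD. The order of the parents is the same in every library, and the groups overlap for each parent.

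Fragments of one class and parent were then summed into families, of which leucine had 21. Among the 3' families, tRF-3a of Leu-AAG had 1915 CPM ± 435 in nicotine and 1474 CPM ± 263 in saline (SD, n = 3 each). tRF-3a of Leu-CAA had 1321 CPM ± 574 in nicotine and 922 CPM ± 61.4 in saline (SD, n = 3 each), and the nicotine values ran from 785 CPM in nicotine 3 to 1927 CPM in nicotine 1. tRF-3a of Leu-CAG had 379.7 CPM ± 125 in nicotine and 259.8 CPM ± 34.9 in saline. tRF-3a of Leu-TAG and Leu-TAA were rarer, at 43.3 and 21.6 CPM in nicotine and 43.2 and 12.8 CPM in saline. The log2 fold changes were 0.37 for Leu-AAG, 0.43 for Leu-CAA, 0.50 for Leu-CAG, 0.04 for Leu-TAG and 1.07 for Leu-TAA (SE 0.98), and the groups overlapped in each. The Leu-TAA sum holds a fragment listed through 2 reads in nicotine 1 alone. The other, tRF-69:86-Leu-TAA-1, had 1 to 4 reads per library and by itself a log2 fold change of 0.57. tRF-3b of Leu-CAA had 264, 254 and 272 CPM in nicotine, against 157, 252.6 and 126 CPM in saline, and tRF-3b of Leu-AAG had 99.1, 73.6 and 93.2 CPM in nicotine, against 48.0, 51.8 and 63.0 CPM in saline. Both sums lay higher in nicotine without overlap, at a log2 fold change of 0.62 for Leu-CAA (SE 0.36) and 0.70 for Leu-AAG (SE 0.47). For Leu-CAA, however, the closest nicotine and saline values were less than 1 read of either library apart. In each family the groups separated only through fragments that reached 20 CPM in nicotine alone. The remaining fragment of each, the 22 nt form, overlapped by itself, so the non-overlap of these 2 sums is no finding. tRF-3b of Leu-CAG averaged 71.5 CPM in nicotine and 71.7 CPM in saline, with a log2 fold change of -0.12.

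Among the 5' families, tRF-5a of Leu-CAA had 319, 311 and 272 CPM in nicotine, against 203, 117 and 199 CPM in saline, without overlap. It was the one leucine family with an unadjusted p under 0.05, at a log2 fold change of 0.84 (SE 0.35, limma adjusted p = 0.479). After TMM saline 1 lay above nicotine 1 and nicotine 3, so its groups overlapped. No leucine family had an unadjusted limma p under 0.05 after TMM. In CPM as deposited, tRF-5a of Leu-AAG had 438 CPM ± 44.4 in nicotine and 295 CPM ± 146 in saline (SD, n = 3 each). Here saline 3 at 461 CPM lay inside the nicotine range. tRF-5a of Leu-TAG had 189 CPM ± 72.5 in nicotine and 116 CPM ± 35.1 in saline, and tRF-5a of Leu-CAG had 102 CPM ± 33.8 in nicotine and 84.5 CPM ± 39.5 in saline. tRF-5a of Leu-TAA had 26.96 CPM in nicotine and 26.90 CPM in saline on average. The log2 fold changes were 0.68 for Leu-AAG, 0.66 for Leu-TAG, 0.31 for Leu-CAG and 0.07 for Leu-TAA. tRF-5b of Leu-AAG had 60.4 CPM in nicotine and 31.0 CPM in saline (log2 fold change 0.97). tRF-5b of Leu-CAG had 113 CPM in nicotine and 104 CPM in saline, and tRF-5b of Leu-CAA had 59.8 CPM in nicotine and 62.0 CPM in saline, with log2 fold changes of 0.17 and 0.02. The tiRNA-5, the anticodon loop products that stress nucleases make, had 61.9 CPM ± 33.2 in nicotine and 59.8 CPM ± 19.5 in saline for Leu-CAG, and 36.1 CPM ± 29.4 in nicotine and 33.6 CPM ± 12.5 in saline for Leu-TAG (SD, n = 3 each). Their log2 fold changes were -0.03 and -0.11. The internal tRF-2 of Leu-TAG and Leu-AAG, each a single fragment, had log2 fold changes of 1.11 and -1.52.

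The trailer of Leu-CAG, with 2 reads in nicotine 1 alone, was not tested. Of the 247 families tested 0.0% passed an adjusted p of 0.05 in limma, and so 0 of the 20 leucine families did. An unadjusted p under 0.05 was held by 9.31% of all families (8.91% higher and 0.405% lower in nicotine) and by 1 of the 20, which was higher. The nicotine libraries lay above the saline libraries without overlap for 17.8% of all families and for 4 of the 20 of leucine. Among these 4, tRF-3b of Leu-AAG and of Leu-CAA did not overlap only through fragments that reached 20 CPM in nicotine alone. No count limited to fragments that reached 20 CPM in both groups was made for families. A positive log2 fold change was held by 16 of the 20, against 74.9% of all families, and after TMM by 11 of the 20, against 57.5% of all. The median log2 fold change was 0.40 for the leucine families and 0.38 for all.

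Among single fragments, the 2 highest members held 51.8% of the leucine CPM and the 10 highest 82.7%. The most abundant, the 18 nt 3' fragment tRF-68:85-Leu-AAG-1-M5, had 2092, 1382 and 1515 CPM in nicotine, against 1046, 1386 and 1498 CPM in saline (log2 fold change 0.34, SE 0.38). Next was its counterpart tRF-70:87-Leu-CAA-1-M4, with 1640.5, 1145 and 754 CPM in nicotine, against 889, 868 and 786 CPM in saline (log2 fold change 0.41, SE 0.38). In both the groups overlapped, and nicotine 1 was the highest of the 6 libraries. The 18 nt 3' fragment of Leu-CAG, tRF-69:86-Leu-CAG-1, had 396, 343 and 202 CPM in nicotine, against 203, 278 and 238 CPM in saline (log2 fold change 0.34). The 22 nt 3' fragment of Leu-CAA, tRF-66:87-Leu-CAA-1-M4, had 242, 213 and 272 CPM in nicotine, against 147, 239.6 and 126 CPM in saline (log2 fold change 0.55). Nicotine 2 lay inside the saline range. The 22 nt 3' fragment of Leu-CAG, tRF-65:86-Leu-CAG-1, of the length and end known from human cells, had 3, 8 and 0 reads in nicotine (33.0, 65.4 and 0 CPM), against 11, 9 and 7 reads in saline (29.4, 58.3 and 33.9 CPM). The groups overlapped. Its log2 fold change of -1.60 (SE 1.51) came from nicotine 3, without which it was 0.26.

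The 17 nt 3' forms were higher in nicotine without overlap for Leu-AAG and Leu-CAG. tRF-69:85-Leu-AAG-1-M5 had 319, 213 and 225 CPM in nicotine, against 131, 181 and 179 CPM in saline (log2 fold change 0.61, SE 0.41). tRF-70:86-Leu-CAG-1 had 110.1, 32.7 and 54.4 CPM in nicotine, from 10, 4 and 7 reads, against 26.7, 19.4 and 14.5 CPM in saline, from 10, 3 and 3 reads. Its log2 fold change was 1.52 (SE 0.66, limma adjusted p = 0.657). The closest libraries, nicotine 2 and saline 1, lay less than 1 nicotine 2 read (8.18 CPM) apart. After TMM saline 1 lay above nicotine 2, so its groups overlapped. The 17 nt form of Leu-CAA, tRF-71:87-Leu-CAA-1-M4, overlapped, with 286, 106 and 31.1 CPM in nicotine, against 53.4, 104 and 67.9 CPM in saline. It had both its highest and its lowest value in the nicotine group, and its log2 fold change of 0.45 (SE 0.62) went to -0.32 without nicotine 1.

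Of the 3 leucine fragments with an unadjusted limma p under 0.05 (1 after TMM), a pair were short 5' ends of Leu-CAA. The other was the 17 nt form of Leu-CAG. tRF-1:15-Leu-CAA-1-M5 had 253, 196 and 179 CPM in nicotine, from 23, 24 and 23 reads, against 115, 84.2 and 97.0 CPM in saline, from 43, 13 and 20 reads. The groups did not overlap, and the log2 fold change was 1.07 (SE 0.44, limma adjusted p = 0.657), or 0.93 to 1.19 with a library left out and 0.75 after TMM. The 14 nt form tRF-1:14-Leu-CAA-1-M5 had 44.0, 40.9 and 38.9 CPM in nicotine, from 4, 5 and 5 reads, against 13.3, 6.48 and 29.1 CPM in saline, from 5, 1 and 6 reads (log2 fold change 1.51, SE 0.74, limma adjusted p = 0.657). The groups did not overlap, on few reads. The 16 nt form of the same tRNA, tRF-1:16-Leu-CAA-1-M2, described here after its values were seen, had 22.02, 73.6 and 54.4 CPM in nicotine, against 74.7, 25.9 and 72.7 CPM in saline, with a log2 fold change of -0.22 (SE 0.63). Whether the lengths differed in their response was not tested. The 16 nt name carries another M suffix than the shorter ones, so they may not stand for the same set of genes.

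For Leu-AAG, Leu-TAG and Leu-CAG the 16 nt form had the highest mean CPM of the 5' ends, for Leu-CAG not in each library (21 reads in saline 1, against 29 of the 35 nt form). tRF-1:16-Leu-AAG-1-M3 had 374, 409 and 326 CPM in nicotine, against 139, 220.2 and 378 CPM in saline (log2 fold change 0.70, SE 0.40), and saline 3 lay inside the nicotine range. tRF-1:16-Leu-TAG-3 had 220.2, 90.0 and 218 CPM in nicotine, against 74.7, 104 and 141 CPM in saline (log2 fold change 0.66). tRF-1:16-Leu-CAG-1-M3 had 110.1, 65.4 and 109 CPM in nicotine, against 56.0, 129.5 and 67.9 CPM in saline (log2 fold change 0.22, and -0.10 after TMM). All 3 overlapped. The 5' fragments of Leu-TAA were at the limit of detection. tRF-1:15-Leu-TAA-1 had 3, 3 and 2 reads in nicotine, against 3, 2 and 0 in saline (33.0, 24.5 and 15.5 CPM in nicotine, against 8.01, 12.95 and 0 CPM in saline). tRF-1:16-Leu-TAA-1, named after its values were seen, had 0, 0 and 1 read in nicotine, against 3, 2 and 8 in saline. The first reached 20 CPM in nicotine alone and the other in saline 3 alone, so that each entered the list through the group where it was high, and their non-overlap is no finding. Neither passed limma (adjusted p = 0.689 and 0.679).

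The internal fragment tRF-29:42-Leu-TAG-1-M3 had 99.1, 73.6 and 77.7 CPM in nicotine, from 9, 9 and 10 reads, against 26.7, 51.8 and 38.8 CPM in saline, from 10, 8 and 8 reads. The groups did not overlap in CPM (log2 fold change 1.11, SE 0.58, limma adjusted p = 0.66), while the read numbers themselves were nearly equal in all 6 libraries. Its Leu-AAG counterpart tRF-29:42-Leu-AAG-1-M3 had 2, 2 and 0 reads in nicotine, against 4, 4 and 6 in saline, and overlapped in CPM (log2 fold change -1.52, SE 1.22). The leading 22 nt 5' fragments were tRF-1:22-Leu-CAG-1-M3, tRF-1:22-Leu-CAA-1-M2 and tRF-1:22-Leu-AAG-1-M3, with 58.0, 41.4 and 48.6 CPM on average in nicotine and 51.4, 40.1 and 27.6 CPM in saline. Their groups overlapped, with log2 fold changes of 0.19, 0.05 and 0.91. The leading 35 nt fragments overlapped too, with 33.0, 98.1 and 54.4 CPM in nicotine, against 77.4, 38.9 and 63.0 CPM in saline for tiRNA-1:35-Leu-CAG-1-M3. tiRNA-1:35-Leu-TAG-1 had 0, 2 and 4 reads in nicotine, against 12, 3 and 5 in saline (log2 fold change -1.64, SE 1.12). The remaining leaders of a family were 3' fragments that overlapped. They were tRF-64:85-Leu-AAG-1-M4, tRF-68:85-Leu-TAG-2 and tRF-69:86-Leu-TAA-1, with log2 fold changes of 0.34, 0.04 and 0.57.

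**Figure D4:**
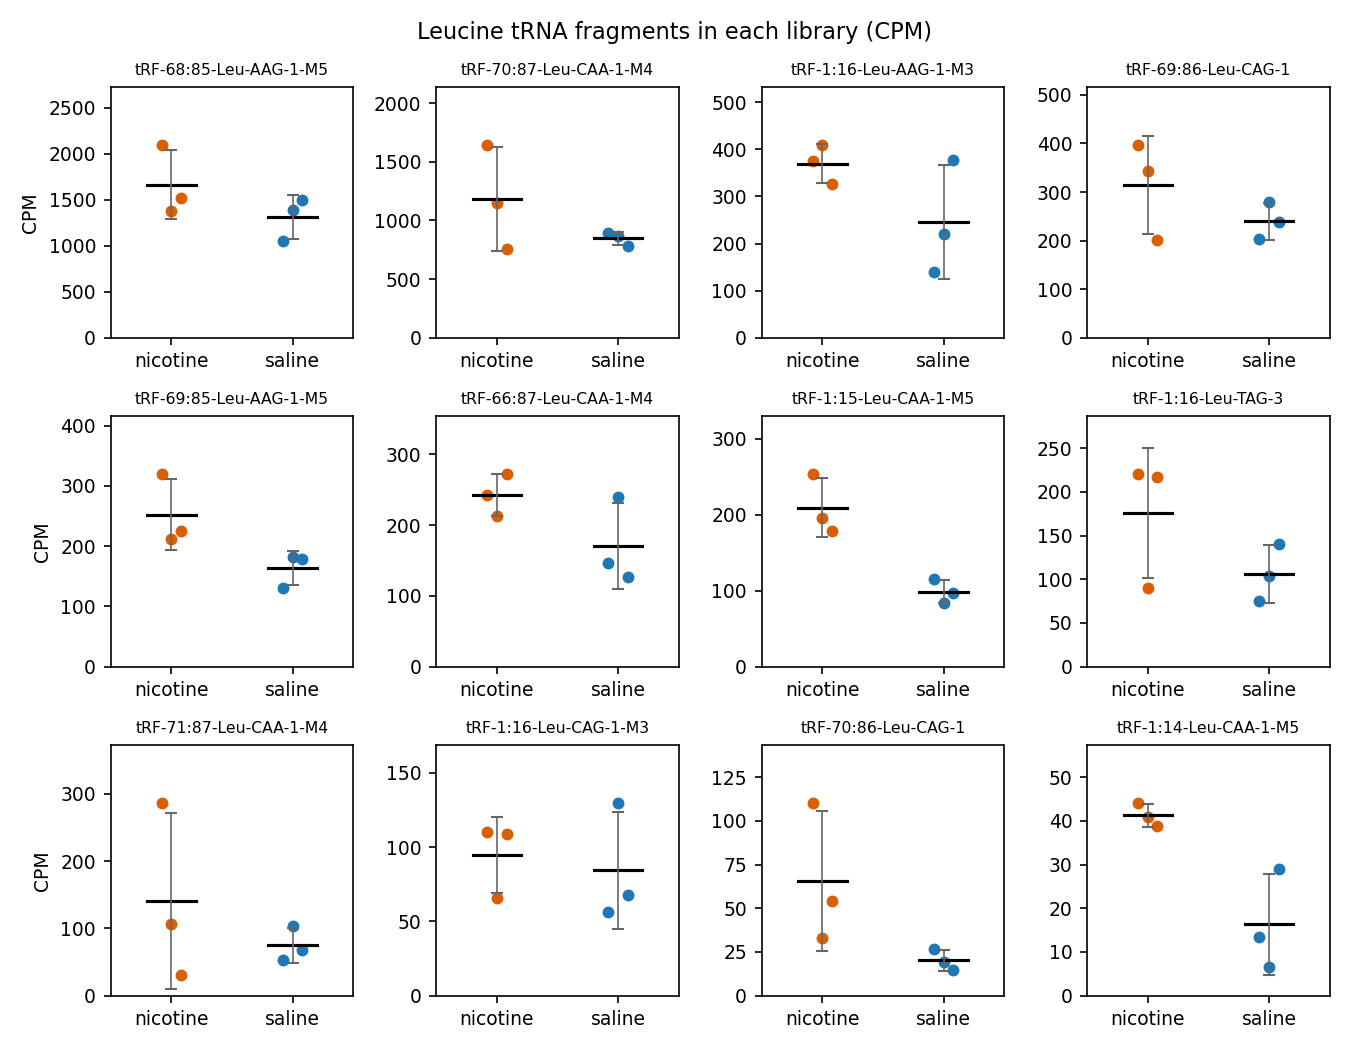
CPM of 12 leucine fragments in each library, nicotine left of saline; points are libraries, thick lines means and error bars SD, with a linear axis from 0 in each panel. They are the 10 most abundant members and those with an unadjusted limma p under 0.05; the 15 nt and 14 nt 5' fragments of Leu-CAA and the 17 nt 3' fragments of Leu-AAG and Leu-CAG do not overlap between groups.

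Of the 41 leucine fragments 37 passed the filter of at least 1 CPM in at least 3 libraries. The other 4 were read in 2 libraries or fewer. 3 of them, the trailer tRF-+1:T17-Leu-CAG-2, tRF-70:86-Leu-TAA-1 and tRF-1:14-Leu-CAG-4, had 2 reads each in nicotine 1 and 0 in the other libraries. The fourth, tRF-67:87-Leu-CAA-1-M4, had 3 reads in nicotine 2 and 1 in saline 1. These 4 were named to account for each member, after their values were seen. Of all 586 fragments tested 0.0% passed an adjusted p of 0.05 in limma, and so 0 leucine fragments did. On recovered whole reads edgeR and DESeq2 called 0 fragments each, with 12 and 17 at an unadjusted p under 0.05, none of them from leucine. At an unadjusted limma p under 0.05 stood 7.0% of all fragments and 3 of the 37 leucine fragments, all 3 higher in nicotine, where 5.12% of all were higher and 1.88% lower. After TMM 1 of the 37 leucine fragments had an unadjusted limma p under 0.05, against 32 of all 586.

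Nicotine libraries lay above saline libraries without overlap for 12.6% of all tested fragments and for 6 of the 37 leucine fragments, and below for 1.54% of all and for 1 leucine fragment. Among fragments that reached 20 CPM in both groups, which leaves out both of Leu-TAA, these were 5 of 27 leucine fragments and 45 of 427 of all above, and 0 and 6 below. The median log2 fold change was 0.42 for the 37 and 0.28 for all 586, and after TMM 0.10 and -0.02. Higher values in nicotine were held by 27 of the 37, against 64.5% of all, and by 20 of the 27 that reached 20 CPM in both groups, against 273 of 427. By class, the higher ones among the 37 were 8 of 8 for tRF-3a, 6 of 7 for tRF-3b, 7 of 10 for tRF-5a, 4 of 7 for tRF-5b, 1 of 3 for tiRNA-5 and 1 of 2 for tRF-2. By parent they were 9 of 10 for Leu-AAG, 7 of 9 for Leu-CAA, 5 of 9 for Leu-CAG, 4 of 6 for Leu-TAG and 2 of 3 for Leu-TAA. No share over all fragments of the same class stands beside these counts, which are a description. After TMM 23 of the 37 were higher, against 49.0% of all. Each of the 5 members with a log2 fold change below -1 had 0 reads in at least 1 nicotine library.

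**Figure D5:**
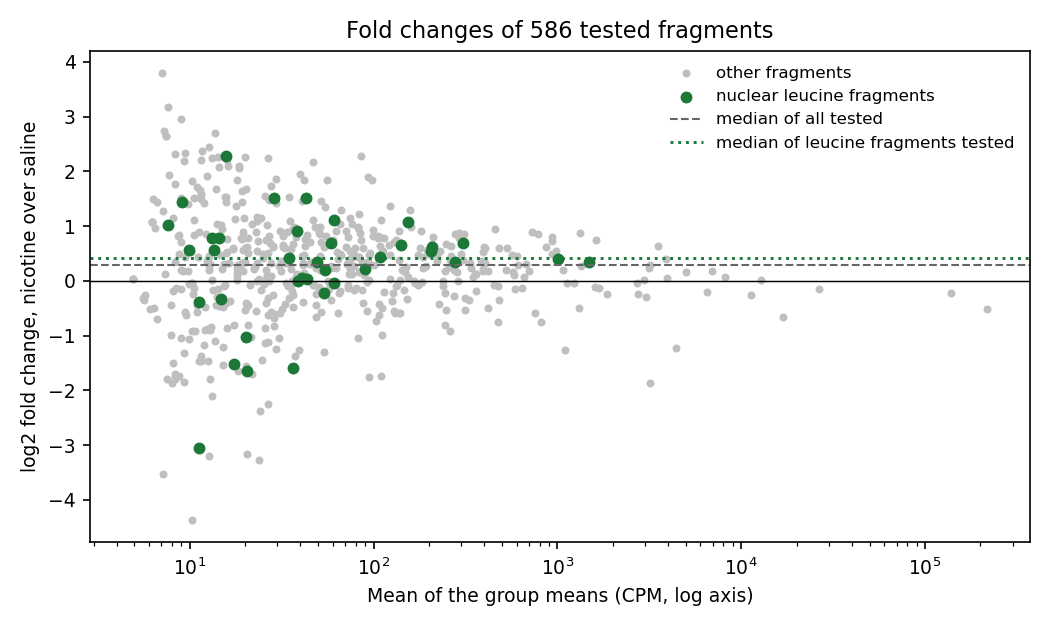
log2 fold change (nicotine over saline, limma on log2(CPM + 1)) against the mean of the group means (CPM, log axis) for the 586 tested fragments, with the 37 nuclear leucine fragments in green. The medians of the leucine fragments (0.42, dotted) and of all tested fragments (0.28, dashed) are drawn; the spread is widest at low CPM.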

How the data were processed

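Per the labels' protocols, adapters were ligated to both ends of the RNA of each hippocampus, and cDNA was made, amplified, cut from a gel by size and sequenced on an Illumina NextSeq. FastQC, cutadapt and Bowtie are named without versions, per the submitters' processing notes. Genome build and tRNA annotation: not given in the sources used here. No coordinates or tRNA sequences were used. The deposited values are CPM, per the file headers of 4 files; the other 2 were read as CPM from their values. Within 0.001 reads, 100% of the values were whole multiples of the value of 1 read, from which whole reads and library totals were recovered. Which reads the totals include is not stated.

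Classes were assigned from position and length in the fragment names. limma 3.58.1 (trend, robust; R 4.3.3) was fitted to log2(CPM + 1) of all listed fragments, families or anticodons that reached 1 CPM in 3 or more libraries. Tests were two-sided, and p-values were adjusted by Benjamini-Hochberg with a threshold of 0.05. A fold change on this scale understates changes of rare fragments that have reads in each library. Where a library has 0 reads it depends on the pseudocount. It can then be larger than the ratio of mean CPM, or of the other sign. For tRF-65:86-Leu-CAG-1 that ratio, nicotine over saline, was 0.81, beside a log2 fold change of -1.60. edgeR 4.0.16 and DESeq2 1.42.0 on recovered reads were alternatives. Shares within a library were compared by exact sign-flip permutation. Intervals are 95% Wilson intervals. The fits were tested on simulated data. Between libraries of one group, chi-square per degree of freedom was 11.9 to 24.4 over all fragments, so each library was counted as its own sample. The labels do not say that the rats came from separate litters, so p-values measure the spread between these libraries. Named fragments are the 10 most abundant leucine members, the leader of each family and those with an unadjusted limma p under 0.05. The members, lists and tests were chosen with earlier results of these data known.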

Additional observations from a re-analysis of the deposited data

How the results depend on the processing

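No leucine fragment, family or anticodon passed an adjusted p of 0.05 under any setting tried. Counts over all items moved at few settings. With the replicate number as a block, limma called 1 fragment (tRF-1:31-His-GTG-1), 0 families and 0 anticodons, and 0 of them from leucine. Deviations of same-numbered libraries correlated at 0.0867, 0.109 and 0.161, so the numbers were not taken to pair rats, although each library correlated best with its own number. Median-of-ratios scaling called 1 anticodon (His-GTG). With a library left out, limma called 0 to 5 fragments (5 without nicotine 3, 1 without saline 2) and 0 to 3 families (3 without nicotine 3), none from leucine, and 0 anticodons. The pseudocounts, the filters and the block reversed no leucine anticodon, family or fragment named by the rule above. Among all 37 tested leucine fragments signs did move, with 27 higher in nicotine in the main fit. At a pseudocount of 0.5 CPM 28 were higher, and at 10 CPM 29.

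Scaling moved the leucine sums. TMM gave log2 ratios of 0.12 for the total, 0.080 for tRF-3a, 0.18 for tRF-3b, 0.31 for tRF-5a and -0.054 for tRF-5b, and as a share of listed reads the total gave 0.69. TMM and median-of-ratios lowered the median of all fragments by about the same amount, to -0.02 and -0.03, so small positive values turned negative. For families these were, under TMM and median-of-ratios in that order, tRF-5a of Leu-CAG at -0.014 and -0.023, tRF-5b of Leu-CAG at -0.16 and -0.16, tRF-5a of Leu-TAA at -0.24 and -0.25, tRF-3a of Leu-TAG at -0.27 and -0.28, and tRF-5b of Leu-CAA at -0.30 and -0.31. DESeq2 gave these 5 families -0.12, -0.35, -0.40, -0.41 and -0.39, and tRF-3a of Leu-AAG -0.050, and edgeR gave the first pair -0.0097 and -0.28. As a share of listed reads, tRF-3b of Leu-CAG gave 0.12, tiRNA-5 of Leu-TAG 0.13 and tiRNA-5 of Leu-CAG 0.21, as did its one fragment tiRNA-1:35-Leu-CAG-1-M3.

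For anticodons, DESeq2 gave -0.0050 for Leu-AAG, -0.11 for Leu-CAG and -0.084 for Leu-TAA. Leu-CAG was at -0.0039 under median-of-ratios and -0.0020 in edgeR. For fragments, TMM, median-of-ratios and DESeq2 gave -0.10, -0.11 and -0.12 for tRF-1:16-Leu-CAG-1-M3 (edgeR -0.11), -0.13, -0.14 and -0.22 for tRF-1:22-Leu-CAG-1-M3, -0.27, -0.28 and -0.32 for tRF-68:85-Leu-TAG-2 and -0.27, -0.28 and -0.27 for tRF-1:22-Leu-CAA-1-M2. DESeq2 gave -0.035 for tRF-64:85-Leu-AAG-1-M4. The cause was not tested.

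Leaving out each library in turn turned the sign of Leu-TAA (-0.085 to 0.63), of the families tRF-5b of Leu-CAG (-0.061 to 0.41), tRF-3b of Leu-CAG (-0.48 to 0.39), tiRNA-5 of Leu-TAG (-0.72 to 0.30), tRF-5a of Leu-TAA (-0.24 to 0.37), tRF-3a of Leu-TAG (-0.39 to 0.37), tiRNA-5 of Leu-CAG (-0.43 to 0.34) and tRF-5b of Leu-CAA (-0.18 to 0.39), and of the fragments tRF-71:87-Leu-CAA-1-M4 (-0.32 to 1.26), tRF-1:16-Leu-CAG-1-M3 (-0.025 to 0.57), tiRNA-1:35-Leu-CAG-1-M3 (-0.43 to 0.34), tRF-68:85-Leu-TAG-2 (-0.39 to 0.37), tRF-1:22-Leu-CAA-1-M2 (-0.087 to 0.24), tRF-65:86-Leu-CAG-1 (-2.77 to 0.26) and tRF-69:86-Leu-TAA-1 (-0.17 to 1.27).

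For the class shares, leaving out glycine reduced the tRF-5b difference to 0.0739 percentage points. Against serine the differences were 34.9 for tRF-3a, 0.729 for tRF-3b, -15.2 for tRF-5a, 2.24 for tRF-5b, 0.0 for tRF-5c, 2.13 for tiRNA-5, 1.60 for tRF-2 and -26.3 for tRF-1, none under an adjusted p of 0.05. For tRF-2 and tiRNA-5, unlisted in serine, and for tRF-1 outside nicotine 1, the sign was fixed. These values, and that of tRF-5c, listed in neither family, are a description. With a library left out the differences from all other nuclear tRNAs ran from 62.4 to 64.1 for tRF-3a, 6.62 to 7.37 for tRF-3b, 16.4 to 17.9 for tRF-5a, 3.28 to 3.996 for tRF-5b, -83.8 to -81.7 for tRF-5c, -4.54 to -3.74 for tiRNA-5, 1.47 to 1.62 for tRF-2 and -5.82 to -4.68 for tRF-1. With 5 libraries the exact permutation test cannot give a p under 0.0625. A fragment with fewer than 10 reads in a library changes by whole reads, so the differences of the rare members were not resolved at this depth.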
